A study of Bos grunniens with 12 samples.

Results

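The genes described here are CD68, CD163, CSF1R, CD14 and MRC1, a set that is widely used to follow macrophages in the testis. They were taken by symbol from the deposited gene expression table of yak (Bos grunniens) testis. Of the 5 symbols, 4 had a row in the table of 20953 genes, each on 1 identifier: CD68 (ENSBGRG00000015552), CD163 (ENSBGRG00000008424), CSF1R (ENSBGRG00000020676) and CD14 (ENSBGRG00000018040). No row carried the symbol MRC1, the gene of the macrophage mannose receptor, and it is not analysed here. All 4 genes that were present passed the filter on low values, a mean of at least 0.5 FPKM over the 6 input libraries, and so entered the test with 12437 genes in all. FPKM are fragments scaled to the length of the transcript and to the mapped fragments of the library, so that levels can be set side by side between genes.

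Testes of 6 yaks were sequenced as 12 libraries, an input library of fragmented poly(A) RNA and a library of the fragments bound by an antibody against N6-methyladenosine (m6A) for each animal, to compare the testis before and after sexual maturity. There were 3 input libraries titled 18M, assigned to animals of 1.5 years whose testes were removed by castration. Another 3 were titled 5Y and assigned to animals of 5 years whose testes were taken after euthanasia. No genotype was named, and no drug treatment before the tissue was taken. The article reports penicillin and streptomycin for the castrated animals after collection. The mode of collection went with the age, so that the effects of these 2 on any value below cannot be told apart. Each library came from whole testis, and in such bulk RNA fewer cells of a type and less RNA per cell cannot be told apart.

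The labels of the groups did not go together. For all 12 samples the deposited developmental stage is the reverse of that implied by the title, and the article gives the letters M and Y the opposite ages to those of the record. The data went against the titles too. TNP1 encodes a transition protein that takes the place of histones in elongating spermatids, and its symbol stood on 2 identifiers. It was at 883, 852 and 879 FPKM in the 18M libraries and at 201, 641 and 550 FPKM in the 5Y libraries. GAPDHS, another spermatid gene, on 1 identifier, was at 113, 107 and 112 FPKM in 18M and at 23.3, 69.3 and 64.4 FPKM in 5Y. Transcripts of late germ cells were thus higher in the libraries titled for the younger age. Every input library held TNP1 at 201 FPKM or more, whereas the article describes no germ cells past primary spermatocytes in testes before maturity. Neither the titles nor the stage field thus gave a group without such transcripts. In what follows 5Y and 18M are names of libraries as titled and not ages that the data bear out, and differences are 5Y minus 18M. Taking the stage field in place of the title would change the stage attached to each group and leave every difference between the groups as it is.

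The libraries titled 5Y also differed among themselves. Correlations of log2 values between libraries were 0.952 to 0.958 within 18M, 0.868 to 0.935 within 5Y and 0.817 to 0.947 between the groups. Replicate 1 of 5Y lay farthest from the other libraries and replicate 2 lay nearest to the 18M libraries, and results are given below without each of these where they changed. FPKM summed to 116187 to 139921 over a library, and 4563 to 4660 genes were listed at 0. How many fragments stand behind a value is unknown, and values under 1 FPKM, where 3 of the 4 genes lie in at least some libraries, are the least precise.

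Resident macrophages lie in the interstitium of the testis, beside the Leydig cells, and around the peritubular wall, where they clear debris, take part in the immune tolerance of germ cells and supply factors to Leydig cells and spermatogonia. They depend on signals through the receptor for macrophage colony-stimulating factor, which CSF1R encodes. CD14 is the surface protein that passes lipopolysaccharide to TLR4 and LY96. CD163 is a scavenger receptor for complexes of haemoglobin and haptoglobin, found mainly on macrophages of the resident or anti-inflammatory kind. CD68 is a heavily glycosylated protein of the late endosome and lysosome.

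CD14 was by far the most abundant of the 4 genes, and CD163 was the only one whose 2 groups did not overlap. CD14 took 71.8% to 91.1% of the summed FPKM of the 4 genes in a library and stood 5.12 to 16.8 times above the next gene. The mean of CD163 was 0.884 ± 0.314 FPKM in 18M and 0.326 ± 0.0619 FPKM in 5Y (SD, n = 3 each). CSF1R and CD14 had higher means in 5Y and CD68 had nearly equal means, but with overlapping libraries. None of the 4 differences passed the adjusted test.

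**Figure D1:**
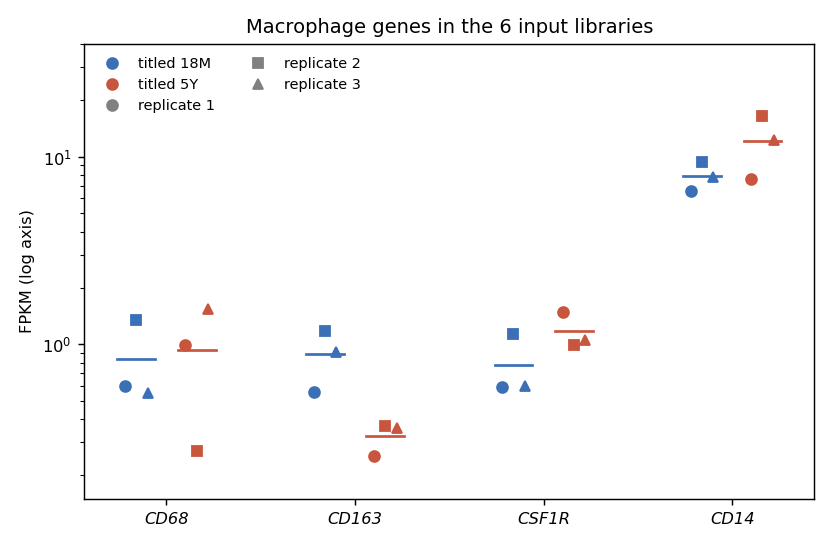
FPKM (log axis) of CD68, CD163, CSF1R and CD14 in the 3 input libraries titled 18M (blue) and the 3 titled 5Y (red), with the symbol giving the replicate and the line the mean of a group. CD14 lies above the other genes in all 6 libraries, and the CD163 points of the groups are separate, 0.556 to 1.18 FPKM in 18M and 0.255 to 0.368 FPKM in 5Y.

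CSF1R, the receptor gene, stood at 0.595, 1.13 and 0.597 FPKM in 18M replicates 1, 2 and 3 and at 1.48, 0.988 and 1.05 FPKM in the 5Y replicates. The single high 18M library, replicate 2, lay above 2 of the 3 libraries of 5Y, and the groups overlapped. The means were 0.775 ± 0.310 FPKM in 18M and 1.17 ± 0.268 FPKM in 5Y (SD, n = 3 each). The log2 fold change of FPKM + 0.1 was 0.58 (SE 0.32, 95% interval −0.18 to 1.33), with an adjusted p of 0.285 by limma, and the exact two-sided permutation test gave p = 0.3. The fold change was 0.41 without replicate 1 and 0.68 without replicate 2 of 5Y. Without the high 18M library, replicate 2, it was 0.85 (limma unadjusted p = 0.0331, adjusted p = 0.295), the one setting in which the unadjusted p was under 0.05. With 3 libraries against 3 the smallest p of this test is 0.1.

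CD14, the lipopolysaccharide co-receptor gene, stood at 6.62, 9.34 and 7.84 FPKM in 18M and at 7.58, 16.6 and 12.3 FPKM in 5Y. Replicate 1 of 5Y lay inside the range of 18M, and the other two 5Y libraries lay above it. The means were 7.93 ± 1.36 FPKM in 18M and 12.1 ± 4.50 FPKM in 5Y (SD, n = 3 each). The log2 fold change was 0.55 (SE 0.29, 95% interval −0.14 to 1.24; limma adjusted p = 0.267; exact permutation p = 0.3). It was 0.85 without replicate 1 of 5Y (limma unadjusted p = 0.00488, adjusted p = 0.142) and 0.29 without replicate 2 of 5Y (unadjusted p = 0.290). Its size thus rested on which 5Y library was included. With every library scaled to the same sum (TPM), the log2 fold change of CD14 was 0.68 (limma unadjusted p = 0.0361, adjusted p = 0.159).

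CD163, the haemoglobin scavenger receptor gene, stood at 0.556, 1.18 and 0.915 FPKM in 18M and at 0.255, 0.368 and 0.356 FPKM in 5Y. Every 5Y library lay below every 18M library. The log2 fold change was −1.16 (SE 0.37, 95% interval −2.03 to −0.30), or 2.24-fold lower in 5Y on the scale of FPKM + 0.1. The unadjusted p by limma was 0.0150 and the adjusted p was 0.154, and the exact permutation test gave p = 0.1, the smallest it can give. The fold change stayed between −1.43 and −0.95 when any 1 library was left out. Without replicate 2 or replicate 3 of 18M the unadjusted p by limma was 0.0707 or 0.0532, with 0.0303 and 0.0179 without replicates 1 and 2 of 5Y.

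CD68, the lysosomal glycoprotein gene, stood at 0.600, 1.36 and 0.551 FPKM in 18M and at 0.999, 0.270 and 1.54 FPKM in 5Y. It varied most among the 4 genes, with its lowest and its highest value both in 5Y and a 5.71-fold range between them. The means were 0.836 ± 0.452 FPKM in 18M and 0.937 ± 0.639 FPKM in 5Y (SD, n = 3 each). The log2 fold change was 0.0027 (SE 0.60, 95% interval −1.41 to 1.41; limma adjusted p = 0.998; exact permutation p = 1). Changes as large as 1.41 on the log2 scale in either direction lie inside this interval, and leaving out 1 library moved the value from −0.45 to 0.62.

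**Figure D2:**
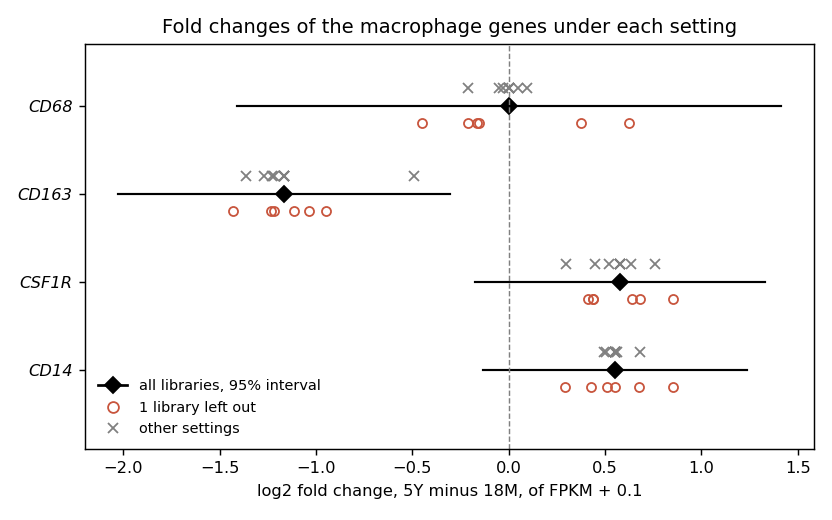
Log2 fold change (5Y minus 18M) of each gene with its 95% interval (black), after leaving out each of the 6 libraries (red circles) and under the other settings (grey crosses). CD163 stayed below 0, CSF1R and CD14 stayed above 0 and CD68 lay on both sides of 0.

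These counts stand beside those of all genes tested. With limma and an adjusted p under 0.05, 4 of the 12437 genes were called (0.0322%), none of them CD68, CD163, CSF1R or CD14. At an unadjusted p under 0.05, 25.1% of genes were called, against 1 of the 4, CD163. With a log2 fold change over 1 in addition, 499 genes were higher in 5Y (4.01%) and 653 were lower (5.25%), the latter including CD163. These counts moved with the libraries, to 0 to 2403 genes at an adjusted p, 247 to 911 higher and 163 to 1117 lower when 1 library was left out, with 2403, 911 and 1117 without replicate 2 of 5Y. After every library was scaled to the same sum (TPM) this split was 767 higher and 512 lower, and the median log2 fold change of all genes was 0.17 in place of 0.04. Groups without overlap were seen in 19.8% of genes with 5Y higher and in 13.9% with 5Y lower. One gene of 4 without overlap is near these shares, and 1731 genes shared the order seen for CD163.

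The order of the other 3 genes below CD14 changed from library to library. In 18M the means of CD163, CD68 and CSF1R were 0.884, 0.836 and 0.775 FPKM, and the ranges of all 3 overlapped. In 5Y the order was CSF1R, CD68 and CD163, at 1.17, 0.937 and 0.326 FPKM. There CSF1R, with a lowest value of 0.988 FPKM, lay above CD163 in each library, while CD68 overlapped both.

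The ratio between genes of the same library does not depend on how the library was scaled. CD163 per CSF1R was 0.935, 1.04 and 1.53 in the 18M libraries and 0.172, 0.372 and 0.339 in the 5Y libraries. CD163 per CD14 was 0.0840, 0.127 and 0.117 in 18M and 0.0337, 0.0222 and 0.0290 in 5Y. In both ratios all libraries of 5Y lay below all of 18M, with mean ratios 3.97 and 3.85 times higher in 18M. The other 4 of the 6 pairs, CD68 per CD163 among them at 0.602 to 1.15 in 18M and 0.734 to 4.33 in 5Y, overlapped. These ratios repeat the values of the single genes and were not tested.

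The 4 genes did not move as a unit over the 6 libraries. The root mean square difference between centred log2 profiles was smallest for CD14 and CSF1R, at 0.518, and was 0.670 for CD68 and CSF1R. It was 0.895 to 0.958 for the other 4 pairs, which include every pair with CD163. Among the tested genes that carry a symbol, the profile nearest to CD163 was that of MOV10, an RNA helicase gene on 5 identifiers, at 0.171. TMEM132A at 0.172 and KCTD8 at 0.221 followed. TRABD (0.0783) and BCKDHB (0.0982) lay near to CSF1R. TWISTNB (0.138), ANGPT1 (0.169) and NAA20 (0.171) lay nearest to CD14, and S100A10 (0.227), CDK2AP2 (0.351) and DDI1 (0.351) to CD68. None of these nearest genes was on the macrophage lists below, and a likeness over 6 libraries is a description.

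Further genes of macrophage biology were taken from 9 lists, which together hold 112 genes, 77 of them in the table and 47 tested. None of the 47 passed an adjusted p of 0.05 by limma. At an unadjusted p under 0.05, 18 were called, 16 higher and 2 lower in 5Y, where 25.1% of all genes were called. With a log2 fold change over 1 as well, 10 were higher, where 4.01% of all genes were, and 1 was lower, where 5.25% were. The median log2 fold change of the 47 genes was 0.52, against 0.04 for all genes tested. Positive values were found in 37 of the 47, and in 53.5% of all genes tested, while that of CD163 was negative. Among symbols on a single identifier the numbers were 7 higher and 1 lower of 34 tested. Without replicate 1 of 5Y 6 genes were higher in place of 10, and the median was 0.33. Without replicate 2 of 5Y 3 were lower in place of 1, and the median was 0.78. For the single lists below, 4.01% of all genes called higher and 5.25% called lower are the shares to compare. Groups without overlap were seen in 19.8% of all genes tested with 5Y higher and in 13.9% with 5Y lower.

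Genes of the CSF1R axis and of macrophage transcription factors gave 1 called gene of 5 tested. MAF, a transcription factor of resident macrophages that other cells also use, stood at 2.48, 1.69 and 1.86 FPKM in 18M and at 6.68, 3.15 and 4.47 FPKM in 5Y (log2 fold change 1.16, limma unadjusted p = 0.00508). CEBPB and NR1H3 had log2 fold changes of 0.24 and 0.51, CSF2, on 3 identifiers, and IRF8, on 2, had values of −0.23 and −0.22, and none of these was called. CSF1, the main ligand of CSF1R, was below the filter, at 0.242 to 0.487 FPKM in 18M and 0.471 to 0.739 FPKM in 5Y. IL34, the second ligand, was listed at 0 in 4 of the 6 libraries and at 0.111 FPKM or less in the others. SPI1, the lineage factor of myeloid cells, was also below the filter, at 0.0796 to 0.509 FPKM in 18M and 0.340 to 0.806 FPKM in 5Y, ranges that overlapped.

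Of the macrophage and monocyte markers, 6 of 16 in the table were tested, with 2 called higher and 1 called lower. CD40, the costimulatory receptor, stood at 0.342, 0.505 and 0.312 FPKM in 18M and at 2.72, 1.18 and 1.60 FPKM in 5Y (log2 fold change 1.93, unadjusted p = 0.000931 by limma). CYBB, the catalytic subunit of the phagocyte oxidase, had a log2 fold change of 1.37 and ITGB2, the shared chain of leukocyte integrins, one of 0.91. AIF1, a calcium-binding protein used to stain macrophages and microglia, went the other way, at 14.2, 12.8 and 13.7 FPKM in 18M and 3.11, 9.69 and 5.61 FPKM in 5Y (log2 fold change −1.27, unadjusted p = 0.0103 by limma). Its lowest library was 5Y replicate 1, as for TNP1 and also for CD163, STAB1 and LAMP1 among others. A common cause was not tested.

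Low levels were the rule for the other markers. ADGRE1, a macrophage marker gene, stood at 0.331 to 0.508 FPKM in 18M and 0.120 to 0.215 FPKM in 5Y, with no overlap and in the same order as CD163. CX3CR1, the fractalkine receptor gene, went in the other order, at 0 to 0.0591 FPKM in 18M and 0.388 to 0.813 FPKM in 5Y. Both were below the filter and were not tested. ITGAM, TREM2, SIGLEC1 and VSIG4 did not exceed 0.376 FPKM in any library.

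Scavenger and clearance receptors, the class to which CD163 belongs, gave no gene past both thresholds among 8 tested. AXL, a receptor for the uptake of dying cells, stood at 2.40, 2.01 and 2.36 FPKM in 18M and at 4.93, 3.84 and 4.12 FPKM in 5Y (log2 fold change 0.90, unadjusted p = 0.00096 by limma). LRP1 had a log2 fold change of 0.61 (unadjusted p = 0.0226). MSR1, STAB1 and MRC2, a relative of the absent MRC1, had values of 0.40, −0.19 and 0.54 and were not called. TIMD4, on 5 identifiers, had the largest change of the list, at −1.33 (unadjusted p = 0.0509 by limma), and its 5Y libraries lay below those of 18M without overlap. STAB2, on 4 identifiers, and MERTK, on 2, had values of −0.82 and 0.86 and were not called. The list held both signs, with 5 of 8 positive.

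The partners of CD14 in Toll-like receptor signalling gave no gene past both thresholds among 5 tested. TICAM2, an adaptor of TLR4, stood at 2.14, 1.87 and 2.43 FPKM in 18M and at 4.14, 3.48 and 3.03 FPKM in 5Y (log2 fold change 0.70, unadjusted p = 0.00663 by limma). MYD88 had a value of 0.79 (unadjusted p = 0.0801). TLR4 itself, on 2 identifiers, was below the filter at 0.0760 to 0.266 FPKM over the 6 libraries, and LY96 stood at 1.82 to 4.39 FPKM. CD14 was thus listed at 6.62 FPKM or more in libraries where its signalling receptor was at 0.266 FPKM or less. The symbol TLR7 stood on 46 identifiers, and its value is not read as that of 1 gene. The other 4 tested, MYD88, TICAM2, LY96 and IRAK1, had positive values of 0.23 to 0.79, and 53.5% of all genes tested were positive.

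The list of haemoglobin and iron handling gave no gene past both thresholds among 5 tested. HMOX1, which breaks down haem, stood at 3.45, 3.89 and 5.30 FPKM in 18M and at 6.07, 1.62 and 2.25 FPKM in 5Y, with a log2 fold change of −0.54 and overlapping groups. BLVRA, which converts biliverdin to bilirubin, had a value of 0.89 (unadjusted p = 0.00768 by limma). SLC40A1, the iron exporter ferroportin, and TFRC had values of 0.14 and 0.59. SLC11A1, an iron transporter of the phagosome, was below the filter, at 0.196 to 0.458 FPKM in 18M and 0.0253 to 0.0958 FPKM in 5Y without overlap.

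Lysosomal genes, the compartment of CD68, gave 1 called gene of 9 tested. LAPTM5, a lysosomal membrane protein of blood cells, stood at 2.06, 1.03 and 1.85 FPKM in 18M and at 7.96, 3.71 and 5.35 FPKM in 5Y (log2 fold change 1.71, unadjusted p = 0.00151 by limma). GPNMB was lower in 5Y at −0.55 (unadjusted p = 0.0169), short of the fold threshold. NPC2, LGMN and CTSK had values of 0.70, 0.62 and 0.52, LAMP1, CTSB, PSAP and GRN lay between −0.21 and 0.39, and none of these was called. Of the 9 tested genes 7 had positive values, where 53.5% of all genes tested did.

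Complement C1q, in most tissues made largely by macrophages, was the only list of the 9 in which all tested genes were called. All 3 were higher in 5Y, where 4.01% of all genes were, and C1QC stood on 2 identifiers. C1QA stood at 3.01, 5.09 and 6.62 FPKM in 18M and at 15.1, 6.79 and 9.60 FPKM in 5Y, C1QB at 2.76, 5.08 and 4.97 FPKM and at 17.6, 6.25 and 9.90 FPKM. The log2 fold changes of C1QA, C1QB and C1QC were 1.07, 1.30 and 1.32, with unadjusted p of 0.0215, 0.0137 and 0.0117 by limma. In each of the 3 the 5Y libraries lay above the 18M libraries, with the highest value in replicate 1 of 5Y. CD163 thus stood below and C1q above its 18M range in the same 3 libraries.

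Genes of cytokines were mostly near 0. TNF, IL1B, IL6 and IL10 did not exceed 0.119 FPKM in any library, and CXCL8 was listed at 0 in all 6. CXCL10, an interferon-induced chemokine, stood at 0.215, 0.465 and 0.910 FPKM in 18M and at 6.58, 1.14 and 3.86 FPKM in 5Y (log2 fold change 2.50, unadjusted p = 0.00714 by limma). Of the MHC class II genes, HLA-DRA, on 8 identifiers, and HLA-DMA, on 3, had log2 fold changes of 1.51 and 1.14 and were called, and CD74 had a value of 0.46 and was not.

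**Figure D3:**
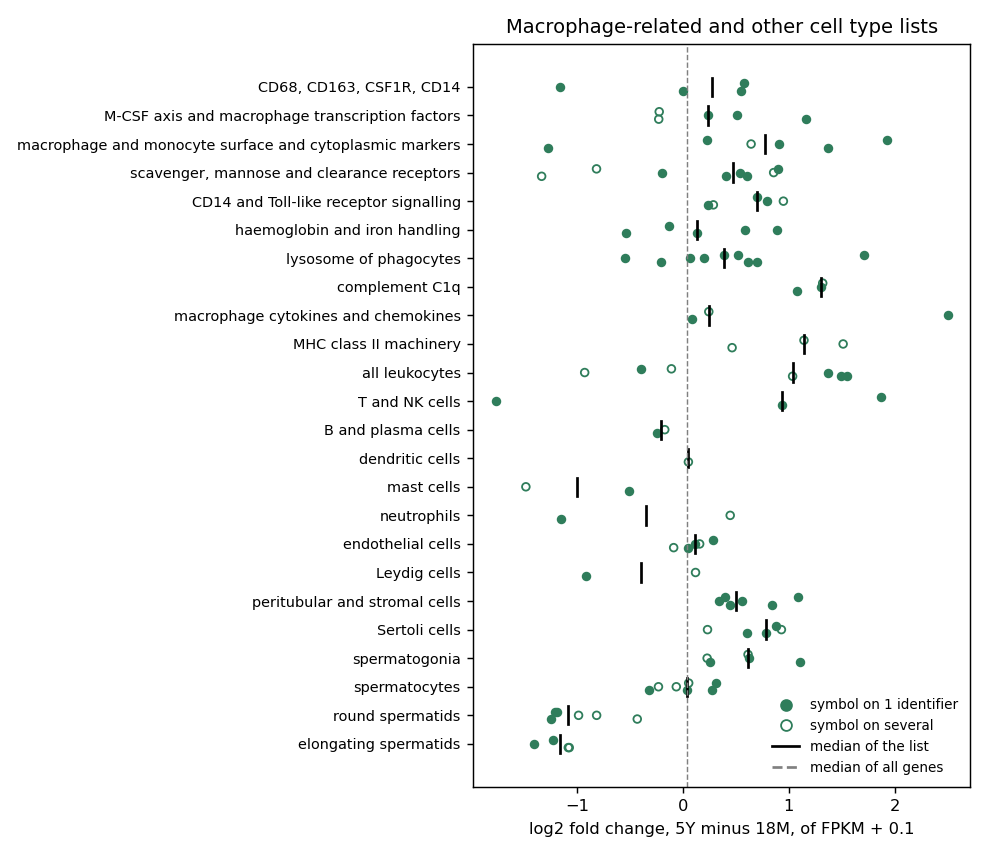
Log2 fold change (5Y minus 18M) of each gene tested in the lists of macrophage biology and of other cell types, with the median of each list (black) and of all genes (dashed, 0.04). The C1q genes lie at 1.07 to 1.32, the elongating spermatid genes at −1.40 to −1.07 and CD163 at −1.16.

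Genes of other cells of the testis were set beside these in the same libraries, and none of them had an adjusted p under 0.05 by limma. All 4 tested genes of elongating spermatids were called lower in 5Y, where 5.25% of all genes were. Their median log2 fold change was −1.16, and their summed level was 1154 to 1195 FPKM in 18M and 263 to 849 FPKM in 5Y. The 6 tested genes of round spermatids had a median of −1.09, with 1 called. The medians were 0.78 for 5 Sertoli cell genes and 0.50 for 6 peritubular and stromal genes, of which 0 and 1 were called higher. At an unadjusted p under 0.05 by limma alone, 4 of the Sertoli cell genes and 3 of the peritubular and stromal genes were higher. Of all genes tested, 25.1% were under that p in either direction. The median was −0.40 for 2 Leydig cell genes, of which 0 were called. Endothelial genes had a median of 0.12 over 5 genes, with 0 called. Spermatogonial genes had a median of 0.62 over 5 genes, with 1 called higher, and spermatocyte genes one of 0.04 over 7 genes, with 0 called. The Leydig cell gene STAR stood at 9.04, 15.4 and 8.60 FPKM in 18M and at 4.83, 5.67 and 6.30 FPKM in 5Y, lower without overlap. That order was seen in 13.9% of all genes tested. The other Leydig cell gene tested, CYP11A1, on 2 identifiers, had a log2 fold change of 0.12 and overlapping groups.

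Genes of leukocytes at large were called higher in 4 of 7 tested, where 4.01% of all genes were, and the other 3 had negative values. PTPRC, which encodes CD45, stood at 0.481, 0.616 and 0.627 FPKM in 18M and at 3.20, 1.07 and 1.85 FPKM in 5Y (log2 fold change 1.55, unadjusted p = 0.00492 by limma). CD52, on 3 identifiers, had a value of −0.93 (unadjusted p = 0.00365 by limma) and did not overlap between the groups, and CD37 and CORO1A had values of −0.40 and −0.11. NKG7, a gene of cytotoxic lymphocytes, had a log2 fold change of 1.87 and was the single gene called of 3 tested for T and NK cells, while CD3D had a value of 0.94 and CD247 one of −1.77 (unadjusted p = 0.0566 by limma). For dendritic cells 1 gene was tested, XCR1, at 0.05. For neutrophils and mast cells 2 genes each were tested and 1 each was called lower, S100A12 at −1.15 and MS4A2, on 3 identifiers, at −1.48, while S100A9 was listed at 0 in every library. For B cells 0 of 2 were called, and no erythroid gene was tested. The part of these differences in the values of CD14, CSF1R, CD163 and CD68 was not tested.

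**Figure D4:**
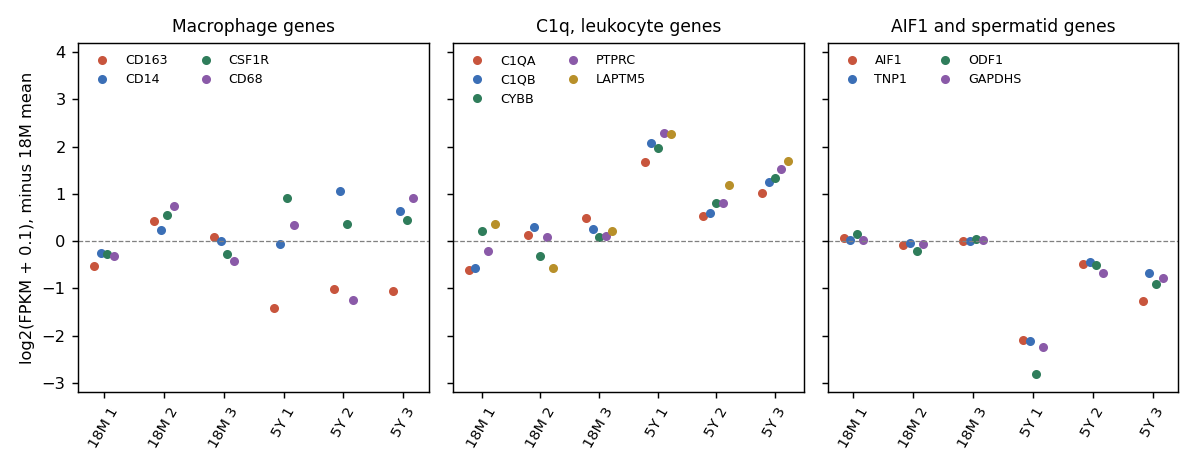
Log2(FPKM + 0.1) of selected genes in each of the 6 input libraries, each minus its mean over the 18M libraries: the 4 macrophage genes (left), C1q and leukocyte genes (middle), AIF1 and spermatid genes (right). The genes in the middle and on the right were chosen after their values were seen. The middle genes lie above 0 and the right genes below 0 in all 3 of the 5Y libraries, most so in replicate 1. Of the leukocyte genes tested but not shown, CD52, CD37 and CORO1A had negative log2 fold changes (−0.93, −0.40 and −0.11), and CD53, LCP1 and CD48 had positive ones.

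The deposited table of m6A peaks that differed between the groups was searched for the same genes. It holds 1438 peaks on 1207 genes and gives no direction or size for a peak. None lay on CD68, CD163, CSF1R or CD14, whether matched by identifier or by symbol. A peak was held by 9.29% of the genes tested and by 4.87% of those with a mean of 0.5 to 1.5 FPKM, the range of CD68, CD163 and CSF1R, so that 0 of 4 is not a departure from the rest, and it does not show that these transcripts lack m6A.

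Among the 77 genes of the macrophage lists in the table, 7 (9.09%) held such a peak on the identifier used for expression, against 5.63% of all genes in the table, tested or not, including adaptors of CD14 signalling. On LU_Bosgru_v3.0, the peak of MYD88 lay at 22:55037759-55038365 in exon 4 of 6 and that of TICAM2 at 11:20912335-20912535 in its 1 exon. The peak of LRP1 lay at 5:48718731-48726975 in exon 18 of 90, that of TFRC at 1:76681796-76686820 in exon 5 of 21, and that of CEBPB at 12:74346088-74346530 in exon 2 of 2. The peak of CD40 was annotated to the 3′ UTR, at 12:70474199-70475758, and that of MAF to exon 3 of 3 at 20:43508205-43508489. The peaks of LRP1 and TFRC cover 8245 and 5025 bases of the genome from start to end, and that of MAF lies just outside the bounds the table gives for the gene, 43508628 to 43510283. Of these 7 genes, CD40 and MAF were also among those called higher in 5Y by the unadjusted test.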

How the data were processed

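Input libraries were grouped by title (5Y and 18M, 3 each). Values of the immunoprecipitated libraries entered only through the peak table. The FPKM values were deposited by the authors, who per the methods and processing notes trimmed reads with Trimmomatic, removed rRNA with SortMeRNA, aligned with HISAT2 2.0.4 to LU_Bosgru_v3.0 and kept unique reads. The program that gave FPKM is not given in the sources used here. Such values hold no fragment counts, so no count test or counting interval was possible. The peaks were called and compared by the authors with MeTDiff, at a fold of at least 1.5 per the methods, and annotated with ChIPseeker. The table gives position and annotated region, and how replicates entered is not stated.

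Here log2(FPKM + 0.1) was compared with limma 3.58.1 (lmFit, eBayes with trend, two-sided, Benjamini-Hochberg) in R 4.3.3, for genes with a mean of at least 0.5 FPKM over the 6 libraries. The filter was kept fixed when libraries were left out. Called means an unadjusted p under 0.05 and an absolute log2 fold change over 1, unless stated. The step was tested on simulated data with 200 changed genes. At an adjusted p under 0.05 by limma, 21.5% of these were recovered at a true log2 change of 1 and 78% at 2. The simulation drew each gene independently and with the same SD in both groups. The libraries here differed in spread between the groups, so these rates need not hold for them. An exact permutation test was run for CD68, CD163, CSF1R and CD14. Tables and figures were made in Python 3.11.15 (matplotlib 3.10.9, scipy 1.17.1, numpy 2.4.6, pandas 2.3.3). The p-values measure the spread between 3 animals a group.

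The genes and lists were chosen with earlier results of these data known, so their counts are descriptions. Named genes were those with a chosen symbol, the genes of the lists and the 3 nearest to each of the 4 genes. Nearness was that of the centred profile, among tested genes that carry a symbol. Some genes that this rule selects are not reported here. Where a symbol stood on several identifiers (3871 symbols did), the one with the highest mean FPKM was used, and such genes are uncertain. Alternatives were other pseudocounts, filters, scalings and forms of eBayes, a replicate block and leaving out each library; those for list counts were added after seeing the data. No sequence is printed, since the reference used here held gene names only.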

Additional observations from a re-analysis of the deposited data

How the results depend on the processing

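CD163 stayed below 0 and CSF1R and CD14 stayed above 0 in every setting that gave a value, at −1.43 to −0.49, 0.30 to 0.85 and 0.29 to 0.85 on the log2 scale. For CD163 the lowest adjusted p by limma was 0.0689. CD68 turned to −0.031 with a pseudocount of 0.01, −0.21 with quantile normalization, −0.052 with median centring and between −0.45 and 0.62 with 1 library left out. CD163 was the 1 gene of the 4 called at an unadjusted p and fold. It was 0 of the 4 with a pseudocount of 1, with a mean of at least 1 FPKM, where only CD14 was tested, and without replicate 2 or 3 of 18M (0 to 1 over the libraries left out). The number of genes called at an adjusted p, 4, was 2 with a pseudocount of 0.01, 8 with no filter, 2 with a mean of at least 1 FPKM, 9 with eBayes without trend, 2 after TPM scaling and 0 to 2403 with 1 library left out, the latter without replicate 2 of 5Y. The 499 genes higher and 653 lower in 5Y were 123 and 378 with a pseudocount of 1. After TPM scaling 767 were higher. With 1 library left out they were 247 to 911 and 163 to 1117, both ends without replicates 1 and 2 of 5Y in turn. Of the macrophage list genes 10 were higher and 1 was lower. With a pseudocount of 1, 4 were higher. With quantile normalization 2 and with median centring 2 were lower. With 1 library left out 6 to 13 were higher and 1 to 3 lower. The causes were not tested.

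Deviations from the group mean had correlations of −0.02, −0.09 and 0.01 between libraries of the same number. Between libraries of different numbers they were −0.13 to 0.14. With 3 libraries a group these values cannot decide whether libraries of the same number belong together in some way. With a replicate block 1 gene was called at an adjusted p, and CD14 had an unadjusted p of 0.0364 by limma at the same fold change of 0.55. The unknown fragment number limits values under 1 FPKM most, and 3 libraries a group cannot give an exact p under 0.1.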
